A study of Homo sapiens with 24 samples.

Results

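KDM5C is a histone demethylase that removes methyl groups from lysine 4 of histone H3, a mark of active promoters, and its gene is often mutated in kidney cancer. YY1 is a zinc finger transcription factor that can activate or repress its targets depending on the partner it recruits. The comparison described here is the simultaneous knockdown of both in ACHN cells, an established human renal cancer cell line that the labels give as ccRCC, and it asks what the transcriptome loses and gains when both proteins are short. Its members were taken from the sample titles and are the 3 shNC libraries (ACHN cells with a control hairpin) and the 3 Dsh libraries (ACHN cells with hairpins against both genes), 6 of the 24 libraries of the series. ACHN cells with a hairpin against KDM5C alone (shKDM5C) or YY1 alone (shYY1), and shNC and Dsh cells of HK2, a human kidney epithelial line, served for comparison with 3 libraries each.

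All these cells were stably infected with lentiviral hairpins and selected with puromycin. According to the methods, Dsh cells were made by infecting YY1-depleted cells with a second, green fluorescent hairpin vector against KDM5C. Infected cells were then selected again, with puromycin and by fluorescence. The study's reagents include a control hairpin vector with EGFP, but its methods do not say whether shNC cells also received a second vector. Where they did not, that step cannot be told apart from the loss of the second protein. The labels do not say whether the 3 libraries of a group came from separate cultures, so p-values measure the spread between these libraries, which may be technical. Between 17910371 and 24272298 read pairs were counted on genes in each of the 6 libraries. Values are counts scaled to a common library size, as CPM, with edgeR's TMM scaling, which compare a gene between samples but not genes with each other. All 9 fixed markers of a renal carcinoma line, PAX8 and MET among them, were above 1 CPM in both groups, with a summed level of 3537 to 3595 CPM in shNC and 3425 to 3516 CPM in Dsh. None of the 5 leukocyte and 5 endothelial markers reached 1 CPM in either group. The leukocyte markers summed to 0.373 to 0.531 CPM in shNC and 0.202 to 0.655 CPM in Dsh, with CD3E and MS4A1 at 0 in all 6 libraries. Endothelial markers summed to 0.532 to 1.17 CPM in shNC and 0.109 to 0.153 CPM in Dsh, with CDH5 and KDR at 0. Of 7 fibroblast markers, COL1A1 and PDGFRB were above 1 CPM and both fell, and the summed level of that list was 577 to 627 CPM in shNC and 134 to 151 CPM in Dsh. LUM was at 0 in all 6 libraries and DCN at a mean of 0.0520 CPM in shNC and 0.0534 CPM in Dsh.

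The targeted genes were examined first. KDM5C, on chromosome X, 53191321 to 53225422 (GRCh38, Ensembl release 84 gene models as in the files), was at 69.9, 69.9 and 69.0 CPM in the shNC libraries and 39.7, 40.7 and 40.1 CPM in the Dsh libraries (log2 fold change -0.80 ± 0.0543 SE, adjusted p = 3.24e-10). Here and below, adjusted p-values come from the quasi-likelihood test of edgeR, adjusted by Benjamini and Hochberg's method over all genes tested. YY1, on chromosome 14, 100238298 to 100282792, was at 133, 137 and 141 CPM in the shNC libraries and 89.7, 103 and 95.3 CPM in the Dsh libraries. For YY1 the log2 fold change was -0.51 ± 0.0536 SE (adjusted p = 1.14e-07). No Dsh library overlapped an shNC library for either gene, and both transcripts were reduced only in part. For YY1 the single knockdown went lower, with 78.5, 71.9 and 75.9 CPM in the shYY1 libraries. The same pair of knockdowns in HK2 lowered both transcripts further, with a log2 fold change of -1.49 for KDM5C and -1.49 for YY1.

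Of 16454 genes that passed edgeR's filter on low counts, 32.0% were lower and 30.7% higher in Dsh than in shNC cells at an adjusted p under 0.05, and the words lower, higher, fell and rose below refer to that test. A change of at least 1.5 on the log2 scale with an unadjusted p under 0.05, called a large change below, was found for 5.61% of genes in the lower and 2.81% in the higher direction. The median log2 fold change over all genes tested was -0.01.

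The genes with the largest falls by fold included FOLR1, TNNC1 and NPNT. FOLR1, the folate receptor on chromosome 11, 72189558 to 72196301, was at 27.3, 25.2 and 23.7 CPM in the shNC libraries and 0.153, 0.0546 and 0.162 CPM in the Dsh libraries. FOLR1 had a log2 fold change of -7.57 ± 0.207 SE (adjusted p = 5.95e-16). TNNC1, a troponin C, dropped from 22.5, 24.7 and 23.7 CPM to 0.357, 0.437 and 0.444 CPM. TNNC1 had a log2 fold change of -5.81 ± 0.162 SE (adjusted p = 7.87e-16). NPNT, which encodes nephronectin, a matrix ligand of integrins in the developing kidney, stood at 168, 180.4 and 178 CPM in the shNC libraries and 6.94, 7.92 and 6.99 CPM in the Dsh libraries. NPNT had a log2 fold change of -4.60 ± 0.0671 SE (adjusted p = 1.29e-19). In all 3 genes each Dsh library was below each shNC library. That was a condition for choosing them, as for other genes named by fold or list. The share of all genes tested without overlap was not counted. In RNA from bulk cultures, fewer cells with a transcript and less of it per cell cannot be told apart. NPNT and FOLR1 were also low in each single knockdown, with means of 11.9 and 1.58 CPM in shKDM5C and 13.4 and 0.461 CPM in shYY1. FGFR2, a fibroblast growth factor receptor, followed another pattern. It had 199.7, 205 and 199 CPM in shNC and 215, 213 and 219.6 CPM in shYY1, against 71.5, 71.1 and 74.3 CPM in shKDM5C and 8.42, 7.92 and 10.6 CPM in Dsh (log2 fold change -4.47 ± 0.0748 SE, adjusted p = 1.01e-18). PLEKHA7, an adherens junction protein, was above its shNC level of 29.9, 31.4 and 29.6 CPM in both single knockdowns, with means of 63.6 CPM in shKDM5C and 103 CPM in shYY1, and at 1.79, 2.13 and 2.34 CPM in Dsh (log2 fold change -3.85 ± 0.117 SE, adjusted p = 2.73e-15). CRYBG2 (-5.34), the metalloprotease gene ADAM33 (-4.94), KIAA0040 (-4.40), the collagen gene COL8A2 (-4.37), RAP1GAP, which switches off the small GTPase Rap1 (-4.35), and PRUNE2 (-4.10) also had log2 fold changes below -4. MT-ATP8, RPS23 and RPL30, which belong to the largest falls too, are described with the ribosomal and mitochondrial genes.

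The genes with the largest rises by fold included VCAM1, SIGLEC15, CCND2 and ANGPTL4. VCAM1, an adhesion molecule for leukocytes on chromosome 1, 100719742 to 100739045, stood at 0, 0.106 and 0.213 CPM in the shNC libraries and 31.5, 33.5 and 30.1 CPM in the Dsh libraries. VCAM1 had a log2 fold change of 8.15 ± 0.229 SE (adjusted p = 9.01e-16). SIGLEC15, a sialic acid-binding receptor, was at 0.515, 0.212 and 0 CPM in the shNC libraries and 52.5, 45.6 and 49.9 CPM in the Dsh libraries. For SIGLEC15 the log2 fold change was 7.61 ± 0.217 SE (adjusted p = 1.02e-15). ANGPTL4, an inhibitor of lipoprotein lipase, rose 51.2-fold, from 5.20, 5.63 and 4.79 CPM to 273, 259 and 270.2 CPM. ANGPTL4 had a log2 fold change of 5.68 ± 0.0670 SE (adjusted p = 1.13e-20). ANGPTL4 had a mean of 31.1 CPM in shKDM5C and 13.6 CPM in shYY1. For these 3 genes every Dsh library exceeded every other ACHN library, and only the separation from shNC was required for choosing them. CCND2, the cyclin D2 gene, was at 0.103, 0.637 and 0.213 CPM in the shNC libraries and 20.2, 19.9 and 22.6 CPM in the Dsh libraries. CCND2 had a log2 fold change of 6.02 ± 0.233 SE (adjusted p = 9.20e-14). CCND2 had a mean of 0.235 CPM in shKDM5C and 1.58 CPM in shYY1. C3, the central component of complement, went from 67.1, 69.0 and 53.2 CPM to 946, 956 and 999 CPM. C3 had a log2 fold change of 3.93 ± 0.0729 SE (adjusted p = 2.53e-18). C3 had means of 150.4 CPM in shKDM5C and 272 CPM in shYY1. The remaining large rises included CSF2 (4.22), the phosphodiesterase gene PDE4C (4.01), PPP1R1A, an inhibitor of protein phosphatase 1 (4.52), CDH10 (4.55), CITED4 (3.82), PAPLN (3.65), the solute carrier gene SLC17A3 (3.57), the neurofilament gene NEFL (3.31), the ceramidase gene ACER2 (3.27) and PDCD1LG2, which encodes the immune checkpoint ligand PD-L2 (3.26), all as log2 fold changes.

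**Figure D1:**
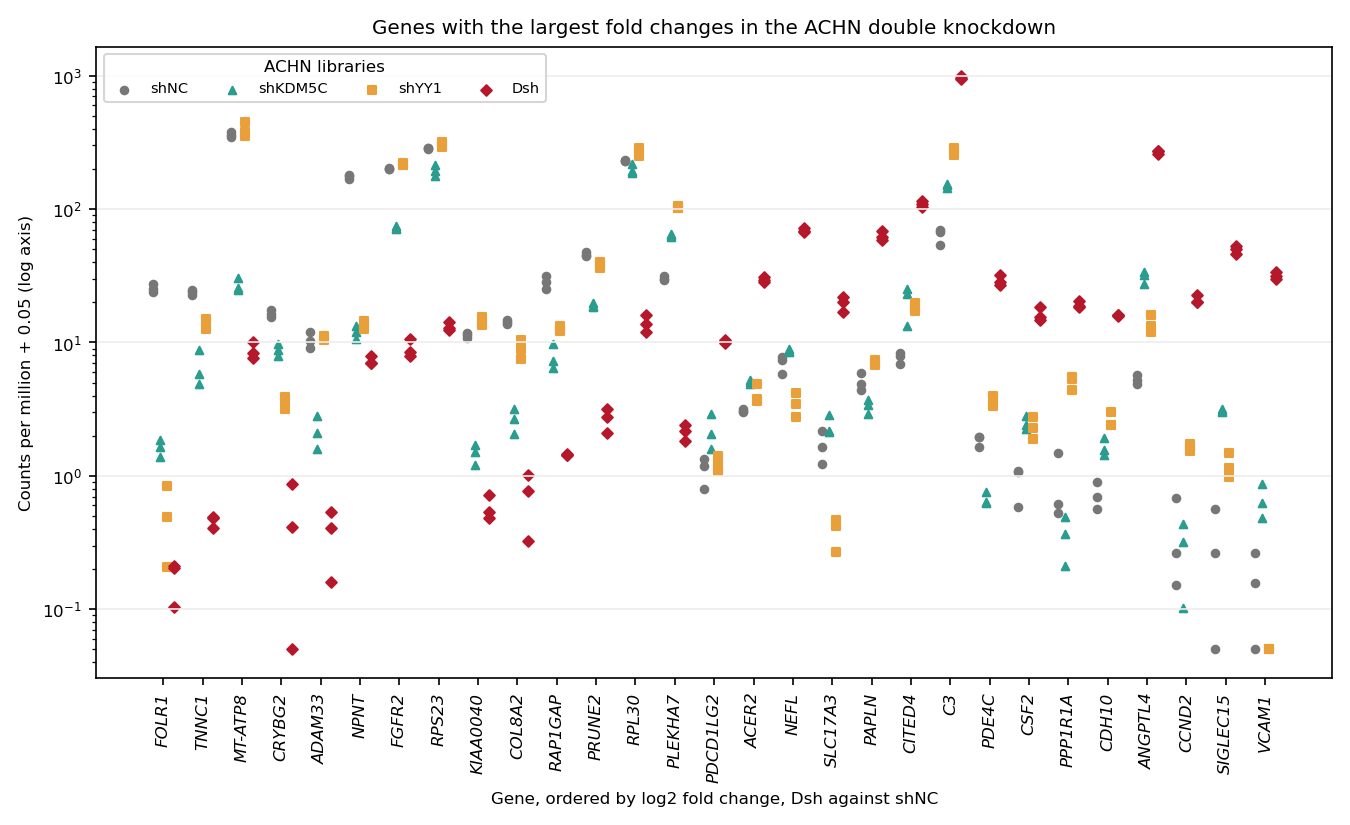
CPM plus 0.05 on a log axis (vertical) of the genes with the largest log2 fold changes between Dsh and shNC (horizontal, from the largest fall to the largest rise) in each of the 12 ACHN libraries, 3 points a group. As the choice of these genes required, the Dsh points lie below all shNC points on the left and above them on the right. The single knockdowns lie near shNC, near Dsh or beyond shNC depending on the gene.

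Beyond single genes, 52 lists of genes with a shared role were examined, holding 1797 distinct genes, of which 1448 passed the filter. The lists were chosen with earlier results of these data known, so their counts are descriptions and not independent tests. The p53, EGF receptor and MAPK feedback, tubule injury and NF-kB lists had the highest median changes and the fatty acid synthesis, metallothionein, cholesterol synthesis and folate lists the lowest. Medians below are of log2 fold changes of the tested genes of a list, to be read beside the -0.01 of all genes, and counts of lower and higher genes beside the 32.0% and 30.7% of all genes.

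**Figure D2:**
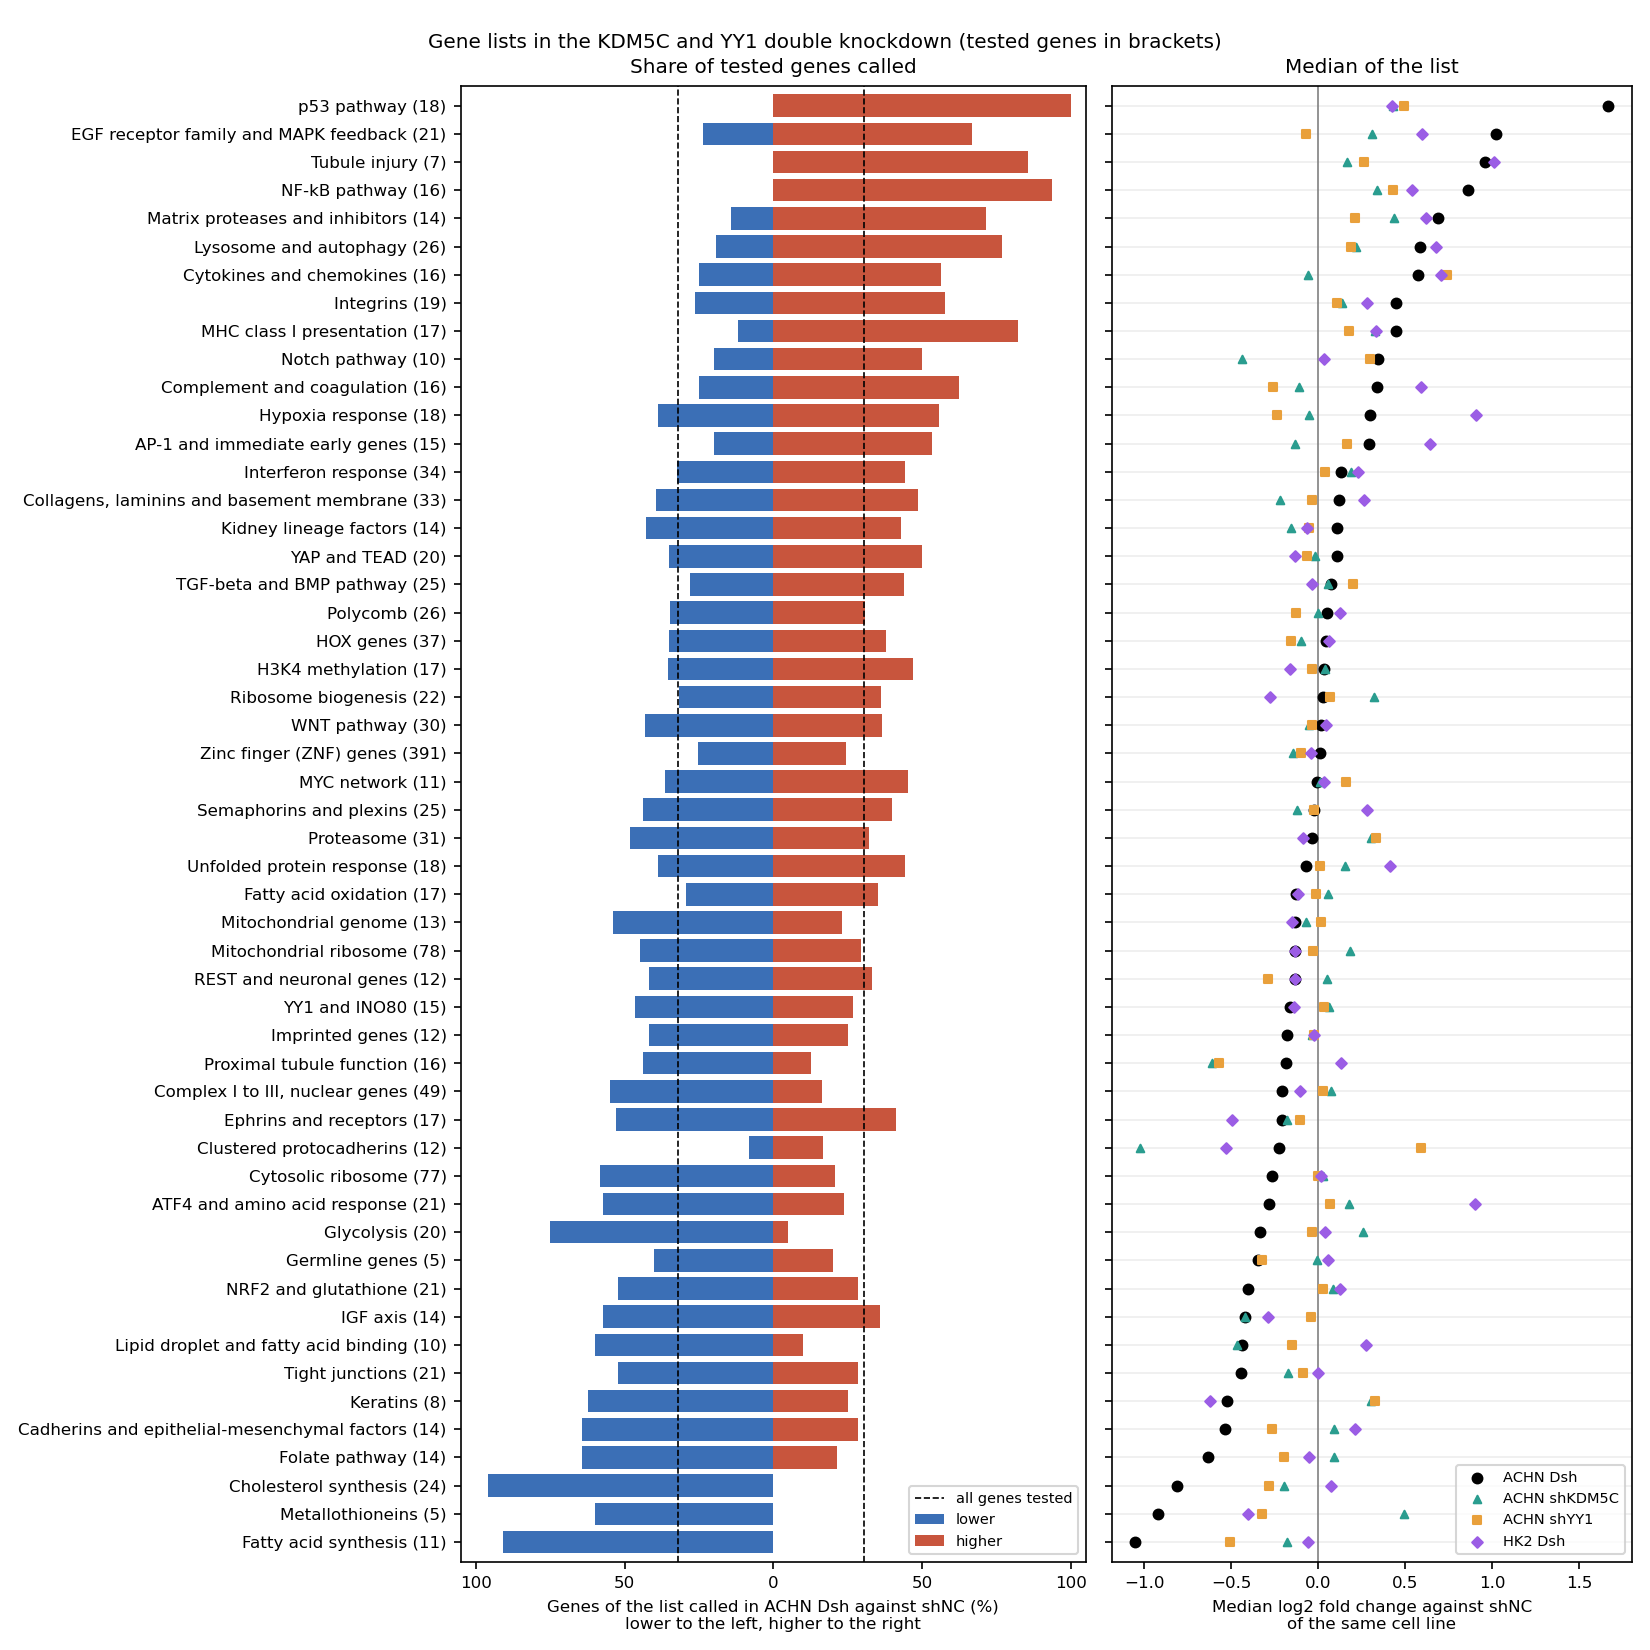
For each of the 52 gene lists, ordered by its median, the left panel shows the percentage of its tested genes that were lower (bars to the left) or higher (bars to the right) in ACHN Dsh than in shNC cells, with dashed lines at the percentages of all genes tested, 32.0 and 30.7. The right panel shows the median log2 fold change against shNC in ACHN Dsh, shKDM5C and shYY1 cells and in HK2 Dsh cells. Fatty acid synthesis has the lowest and the p53 pathway the highest median, each with a bar to 1 side only.

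The p53 transcription factor is activated by DNA damage and other stress and switches on genes that stop the cell cycle, repair DNA or feed back on p53 itself. All 18 genes of the p53 list were tested and 18 were higher in Dsh cells, 10 of them by a large change, with a median of 1.67. CDKN1A, the cyclin-dependent kinase inhibitor p21 on chromosome 6, 36676460 to 36687339, was at 131, 139 and 129 CPM in the shNC libraries and 645, 585 and 664 CPM in the Dsh libraries. CDKN1A had a log2 fold change of 2.25 ± 0.0528 SE (adjusted p = 7.88e-17). GDF15, a secreted stress cytokine, was at 65.5, 75.9 and 57.1 CPM in the shNC libraries and 437, 453 and 451 CPM in the Dsh libraries. For GDF15 the log2 fold change was 2.75 ± 0.0715 SE (adjusted p = 3.16e-16). BTG2, an antiproliferative gene, was at 43.9, 36.6 and 39.5 CPM in the shNC libraries and 233, 215 and 226 CPM in the Dsh libraries. For BTG2 the log2 fold change was 2.49 ± 0.0598 SE (adjusted p = 1.08e-16). In each of these the 3 Dsh libraries lay within a narrow range. They were above all shNC libraries, which the choice of these genes required. FDXR, a mitochondrial ferredoxin reductase, rose from 52.9, 51.9 and 47.4 CPM to 217, 189 and 219 CPM. FDXR had a log2 fold change of 2.04 ± 0.0608 SE (adjusted p = 2.10e-15). MDM2, the ubiquitin ligase that degrades p53, had 153 ± 4.10 CPM in shNC and 488 ± 15.4 CPM in Dsh (SD, n = 3; log2 fold change 1.67, adjusted p = 5.67e-16). The rises also took in PLK3 (1.97), SESN1 (1.79), ZMAT3 (1.66) and RRM2B, a ribonucleotide reductase subunit for DNA repair (1.49). Among the smaller rises was that of AEN (0.35, adjusted p = 8.87e-05).

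The single knockdowns share their shNC libraries with the double knockdown, so their values are given side by side. The median of the p53 list was 0.43 in shKDM5C and 0.49 in shYY1. CDKN1A had a mean of 221 CPM in shKDM5C and of 276 CPM in shYY1, between shNC and Dsh. Dsh cells were then compared directly with each single knockdown. Against shKDM5C, 30.9% of all genes tested were lower and 31.6% higher in Dsh, and of the p53 list 1 was lower and 17 were higher. Against shYY1, 32.7% of all genes were lower and 32.0% higher, and of the p53 list 1 was lower and 16 were higher. CDKN1A exceeded both single knockdowns (adjusted p = 8.08e-14 against shKDM5C and 2.09e-12 against shYY1).

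**Figure D3:**
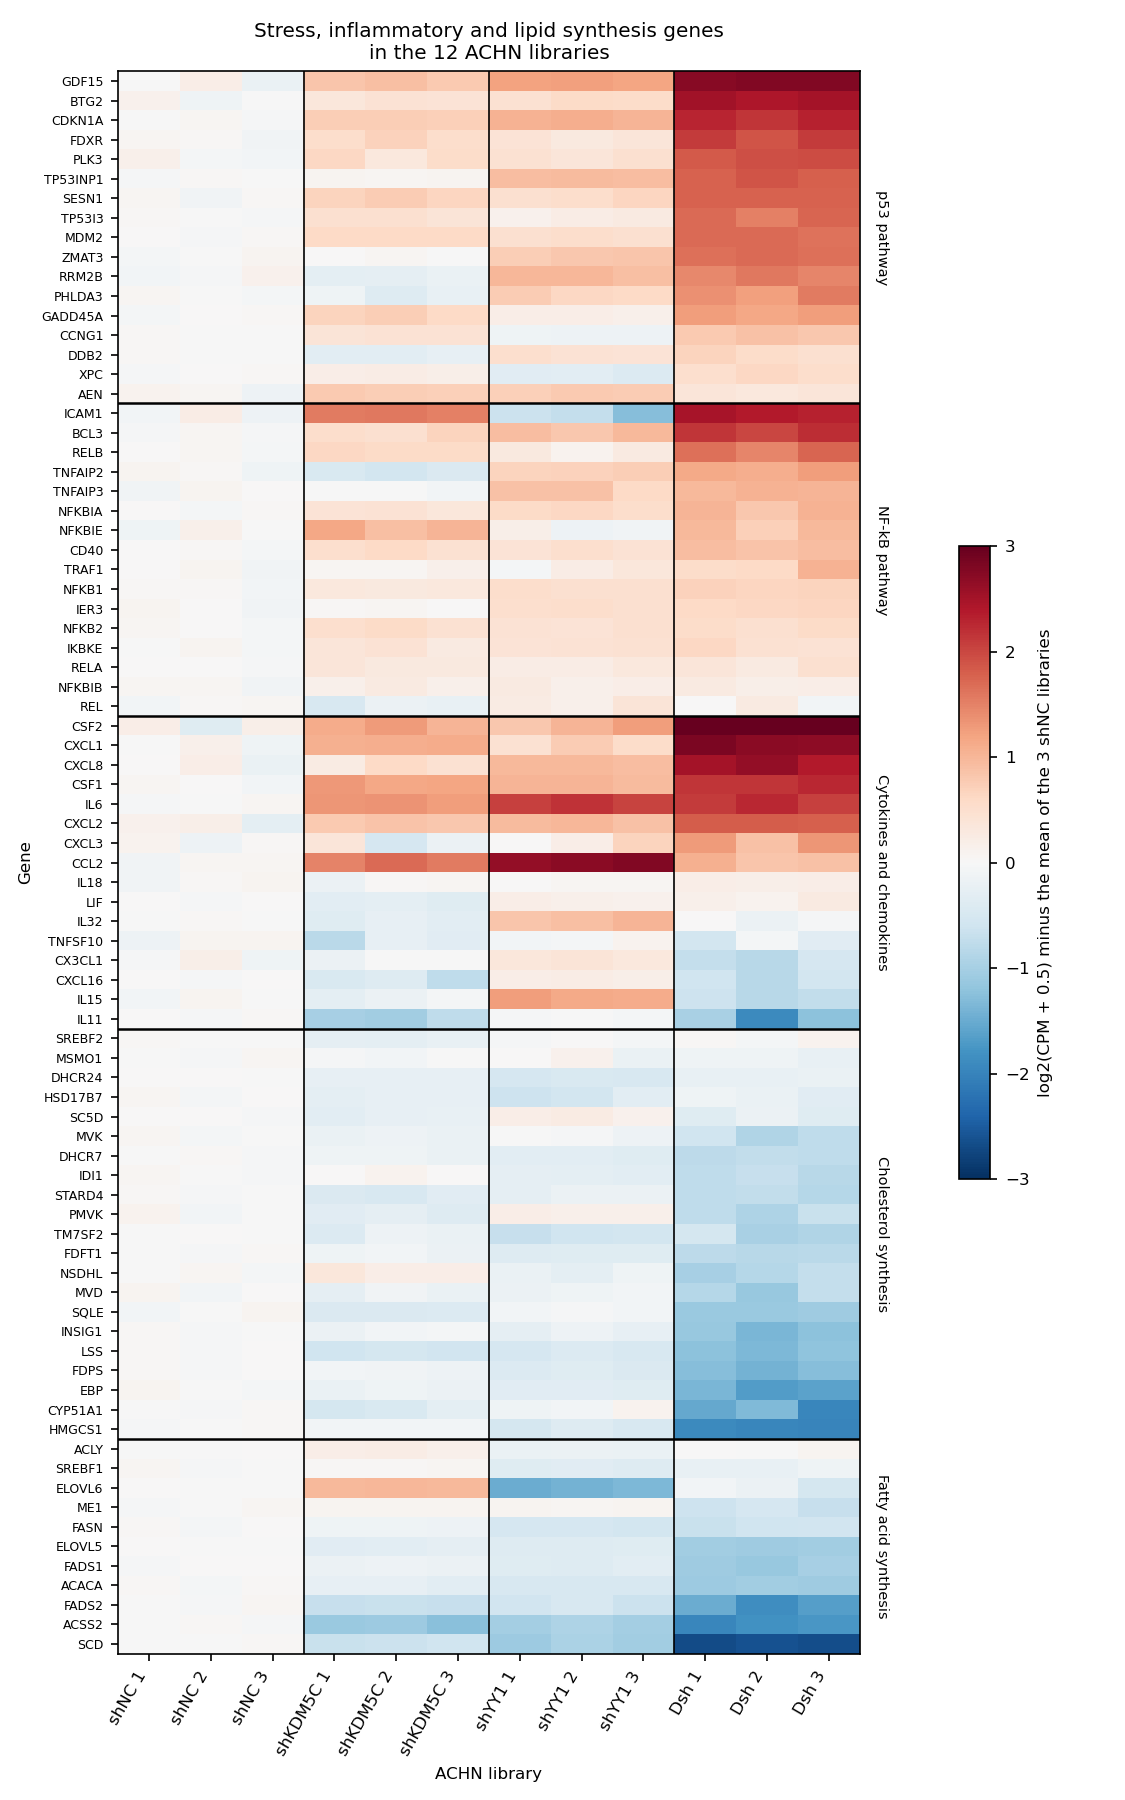
Heat map of log2(CPM + 0.5) minus the mean of the 3 shNC libraries (colour, cut at 3 in each direction) for the tested genes of 5 lists (rows, with some genes not shown) in the 12 ACHN libraries (columns). The 3 Dsh columns are red over the whole p53 block and nearly the whole NF-kB block and blue over nearly all cholesterol and fatty acid synthesis genes, and the single knockdown columns are paler in most rows, with CCL2 and ELOVL6 among the exceptions.

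NF-kB is a family of dimeric transcription factors held in the cytoplasm by inhibitor proteins and released by inflammatory signals. Its target genes include those inhibitors, adhesion molecules and chemokines. Of the 16 genes of the NF-kB list none was lower and 15 were higher, with a median of 0.86. The exception was the subunit gene REL, with 20.6 ± 0.966 CPM in shNC and 21.7 ± 2.93 CPM in Dsh (SD, n = 3; log2 fold change 0.06, adjusted p = 0.577). The subunit genes RELB (1.66, adjusted p = 4.12e-12) and NFKB1 (0.67, adjusted p = 2.24e-09) and the inhibitor genes NFKBIA (0.96, adjusted p = 1.43e-10) and TNFAIP3 (1.04, adjusted p = 1.65e-08) rose, all as log2 fold changes. BCL3, a nuclear partner of NF-kB, was at 23.7, 25.2 and 23.7 CPM in the shNC libraries and 109, 98.0 and 113 CPM in the Dsh libraries. BCL3 had a log2 fold change of 2.14 ± 0.0645 SE (adjusted p = 2.39e-15). ICAM1, an adhesion molecule, was at 1.03, 1.38 and 0.958 CPM in the shNC libraries and 8.53, 7.86 and 7.51 CPM in the Dsh libraries. For ICAM1 the log2 fold change was 2.82 ± 0.188 SE (adjusted p = 2.42e-10). ICAM1 had a mean of 0.389 CPM in shYY1 cells. The medians of the NF-kB list were 0.33 in shKDM5C and 0.43 in shYY1. In direct comparisons 11 of its genes were higher in Dsh than in shKDM5C and 11 higher than in shYY1, and none was lower in either.

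Cytokine genes moved in both directions, with more rises. Of 25 listed, 16 passed the filter, and 4 were lower and 9 higher, with 6 large rises. The median of the list was 0.57 in Dsh, -0.06 in shKDM5C and 0.74 in shYY1. Compared directly, 3 were lower and 10 higher in Dsh than in shKDM5C, and 6 were lower and 6 higher than in shYY1. CXCL1, a neutrophil chemokine, was at 28.3, 31.9 and 26.0 CPM in the shNC libraries and 207, 189 and 186 CPM in the Dsh libraries. For CXCL1 the log2 fold change was 2.75 ± 0.0663 SE (adjusted p = 1.10e-16). CXCL8, or interleukin 8, was at 4.64, 5.31 and 3.94 CPM in the shNC libraries and 28.1, 31.5 and 26.2 CPM in the Dsh libraries. CXCL8 had a log2 fold change of 2.62 ± 0.117 SE (adjusted p = 7.43e-13). CSF1, the macrophage growth factor, rose from 26.8, 25.8 and 24.1 CPM to 114, 115 and 124 CPM. For CSF1 the log2 fold change was 2.20 ± 0.0598 SE (adjusted p = 5.72e-16). All 3 genes had every Dsh library above every shNC library, which their choice required. CSF2, the granulocyte-macrophage growth factor, was at 1.03, 0.531 and 1.01 CPM in the shNC libraries and 18.5, 14.6 and 15.5 CPM in the Dsh libraries. CSF2 had a log2 fold change of 4.22 ± 0.188 SE (adjusted p = 7.10e-13). IL6 rose (log2 fold change 2.17, adjusted p = 3.24e-14), and CXCL2 and CXCL3, whose sequences are close enough to CXCL1 that reads may be shared, by 1.83 and 1.39 on the log2 scale. CCL2, a monocyte chemokine, was highest in the single knockdowns: its mean was 10.5 CPM in shNC, 32.7 CPM in shKDM5C, 71.8 CPM in shYY1 and 20.5 CPM in Dsh, which was below shYY1 (adjusted p = 1.44e-12). IL15 (-0.76, adjusted p = 7.42e-07) and IL11 (-1.95, adjusted p = 1.55e-04) fell.

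Promoter sequences show where letters that NF-kB is known to bind occur near the starts of these genes. RefSeq promoters of the build GRCh38.p14, from 250 bases before to 50 bases after each start, were searched on both strands for the letters GGG, any 2 bases, then TTTCC. These letters were present in 1.92% of all 27305 promoters and in 2.09% of those of the genes tested here. They were present in 4 of 12 NF-kB list promoters that could be matched and in 5 of 9 of the cytokine list, CXCL1, CXCL2 and CXCL3 among them. The MHC class I presentation list had them in 3 of 13 and the p53 list in 0 of 13. The NF-kB list was drawn up from known NF-kB genes, and whether the letters bear on the changes was not tested. The windows below hold the match with 10 bases on each side, upstream of the start and 5′ to 3′ on the strand of the gene, with the match in capitals (the reverse complement where the match is on the other strand). The rising genes CXCL1 at chr4:73869304-73869333, CXCL2 at chr4:74099254-74099283, CXCL3 at chr4:74038749-74038778, IL6 at chr7:22727117-22727146, NFKBIA at chr14:35404811-35404840, TNFAIP3 at chr6:137867182-137867211, NFKB1 at chr4:102501300-102501329 and TAP1 at chr6:32853757-32853786 are shown with REL at chr2:60881518-60881547 and IL32 at chr16:3065294-3065323, which hold the letters and did not pass the test (log2 fold change of IL32 -0.06, adjusted p = 0.325). TNFAIP3 holds a further match, not shown. CXCL2, CXCL3, NFKBIA and TAP1 lie on the minus strand and the other genes on the plus strand.
CXCL1: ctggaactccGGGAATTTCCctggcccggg
CXCL2: ctggagctccGGGAATTTCCctggcccggg
CXCL3: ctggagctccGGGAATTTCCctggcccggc
IL6: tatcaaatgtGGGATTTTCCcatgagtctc
NFKBIA: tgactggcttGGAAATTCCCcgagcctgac
TNFAIP3: acgtgactttGGAAAGTCCCgtggaaatcc
NFKB1: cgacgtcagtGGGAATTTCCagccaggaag
TAP1: gcctgttcctGGGACTTTCCgagagccccg
REL: gtcagccgcgGGAAATTCCCctcccgccag
IL32: cctgtactcaGGGAGTTTCCccagccagct

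A match is a description of these letters and not a measured binding site. The windows of CXCL1, CXCL2 and CXCL3 are nearly alike over their whole length.

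Genes of antigen presentation, complement and the lysosome rose in larger shares than all genes. MHC class I molecules carry peptides to the cell surface after the proteasome has cut them and the TAP transporter has moved them. Of 17 tested genes, 2 were lower and 14 higher, with a median of 0.45 and no large change. The count of lower genes in that list was 1 with the replicate block, without any 1 of the shNC libraries or without Dsh replicate 3. TAP1, a subunit of that transporter, was at 44, 48.2 and 46.1 CPM in the shNC libraries and 94.0, 87.6 and 95.1 CPM in the Dsh libraries. TAP1 had a log2 fold change of 1.0 ± 0.0558 SE (adjusted p = 1.83e-11). PSMB10, an immunoproteasome subunit, was at 10.2, 10.5 and 10.7 CPM in the shNC libraries and 25.0, 21.1 and 24.1 CPM in the Dsh libraries. For PSMB10 the log2 fold change was 1.16 ± 0.0939 SE (adjusted p = 3.61e-09). The peptide-trimming gene ERAP1 (1.07) also rose. Interferon-stimulated genes were near balance, with 10 lower and 10 higher of 26, while among 8 sensors and factors 5 rose and 1 fell. IRF1, an interferon regulatory factor, went from 22.2, 27.5 and 23.9 CPM to 74.2, 73.4 and 73.4 CPM. IRF1 had a log2 fold change of 1.59 ± 0.0702 SE (adjusted p = 6.62e-13).

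In the complement and coagulation list 4 were lower and 10 higher of 16. After C3, the largest rise was of TFPI2, a protease inhibitor, from 46.1, 49.1 and 41.6 CPM to 324, 329 and 319 CPM. For TFPI2 the log2 fold change was 2.82 ± 0.0561 SE (adjusted p = 7.56e-18). The complement protease C1S had means of 9.85 CPM in shNC, 4.93 CPM in shKDM5C and 4.22 CPM in shYY1, and rose to 19.8 CPM in Dsh (log2 fold change 1.01 ± 0.10 SE, adjusted p = 6.14e-08). Of 26 lysosome and autophagy genes 5 were lower and 20 higher, with a median of 0.59. CTSD, the aspartic protease cathepsin D, was at 210.2, 207 and 203 CPM in the shNC libraries and 773, 777 and 847 CPM in the Dsh libraries. CTSD had a log2 fold change of 1.95 ± 0.0467 SE (adjusted p = 1.03e-16). NPC1, which exports cholesterol from lysosomes, was at 187, 190.3 and 190.3 CPM in the shNC libraries and 430.1, 472 and 467 CPM in the Dsh libraries. NPC1 had a log2 fold change of 1.27 ± 0.0468 SE (adjusted p = 4.77e-14). The calcium channel gene MCOLN1 (1.39) and the peptidase gene TPP1 (1.17) rose as well, and so did PSAP, the precursor of sphingolipid activator proteins, from 1143, 1142 and 1119 CPM to 2178, 2077 and 2162 CPM. PSAP had a log2 fold change of 0.91 ± 0.0380 SE (adjusted p = 2.63e-13).

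EGF receptor signalling runs through the MAP kinase ERK, which induces its own inhibitors, the DUSP phosphatases and Sprouty proteins. Of 10 feedback and target genes, 9 rose and none fell, with a median of 1.24. Among 11 receptors and ligands, 5 fell and 5 rose, a difference between the sublists that was not tested. The ligand gene AREG was at 2.78, 2.12 and 2.61 CPM in the shNC libraries and 13.1, 11.6 and 13.5 CPM in the Dsh libraries. For AREG the log2 fold change was 2.35 ± 0.143 SE (adjusted p = 6.46e-11). EREG was at 1.24, 0.956 and 0.586 CPM in the shNC libraries and 8.27, 9.45 and 6.91 CPM in the Dsh libraries. For EREG the log2 fold change was 3.13 ± 0.225 SE (adjusted p = 6.76e-10). DUSP6, a phosphatase of ERK, was at 2.63, 1.27 and 1.01 CPM in the shNC libraries and 10.5, 8.03 and 10.5 CPM in the Dsh libraries. DUSP6 had a log2 fold change of 2.56 ± 0.231 SE (adjusted p = 1.64e-08). In none of the 3 genes did a Dsh library overlap an shNC library, which their choice required. The Sprouty gene SPRY4 (2.38) and the ETS factor gene ETV5 (1.93) rose, and the receptor genes EGFR (-1.15, adjusted p = 4.32e-14) and ERBB3 (-1.98, adjusted p = 4.30e-11) fell. Of the AP-1 and immediate early list, 3 were lower and 8 higher of 15, with KLF2 (2.32) and JUND (1.36) among the rises and MAFK (-0.91) among the falls.

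Genes of the cell surface and matrix moved in both directions. Of the matrix protease list, which holds the plasminogen activators and their inhibitors, 2 were lower and 10 higher of 14. PLAT, the tissue plasminogen activator, was at 17.8, 16.7 and 17.1 CPM in the shNC libraries and 78.3, 78.9 and 78.8 CPM in the Dsh libraries. For PLAT the log2 fold change was 2.19 ± 0.0619 SE (adjusted p = 9.33e-16). PLAU and its receptor PLAUR rose by 1.41 and 1.32 on the log2 scale. Integrins, the heterodimeric receptors of the matrix, had 11 rises and 5 falls among 19. ITGB3 was at 9.27, 8.07 and 8.25 CPM in the shNC libraries and 47.0, 46.3 and 49.0 CPM in the Dsh libraries. For ITGB3 the log2 fold change was 2.47 ± 0.0814 SE (adjusted p = 9.41e-15). ITGB3 had a mean of 1.14 CPM in shYY1. ITGA3, a laminin receptor chain, rose from 1373, 1334 and 1305 CPM to 3834, 3781 and 3992 CPM. ITGA3 had a log2 fold change of 1.53 ± 0.0387 SE (adjusted p = 2.27e-16). Of 17 laminin and linker genes 11 rose and 3 fell, and of 16 collagen genes 10 fell and 5 rose. The difference between these sublists was not tested. COL1A1, a chain of the main fibrillar collagen, was at 585, 595 and 545 CPM in the shNC libraries and 127, 130.4 and 143 CPM in the Dsh libraries. For COL1A1 the log2 fold change was -2.11 ± 0.0527 SE (adjusted p = 1.96e-16). COL7A1, of the anchoring fibrils, was at 349, 344 and 299 CPM in the shNC libraries and 100.3, 95.8 and 112 CPM in the Dsh libraries. For COL7A1 the log2 fold change was -1.68 ± 0.0640 SE (adjusted p = 7.16e-14). COL5A2 rose (log2 fold change 1.69 ± 0.0718 SE, adjusted p = 3.56e-13). Fibronectin, FN1, had the largest gain in CPM among the protein-coding genes without overlap, from 3253, 3488 and 3209 CPM to 5906, 6397 and 6123 CPM. For FN1 the log2 fold change was 0.89 ± 0.0415 SE (adjusted p = 1.42e-12). It was below shNC in shKDM5C and shYY1 with means of 2070.5 and 865 CPM.

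Lipid synthesis genes fell as a group. Cholesterol is made from acetyl-CoA by a chain of enzymes whose genes, with those of fatty acid desaturation, are switched on by the SREBP transcription factors when sterols are low. Of 24 genes of the cholesterol list, all tested, 23 were lower and none was higher, with a median of -0.81. The 19 enzymes all fell. HMGCS1, the HMG-CoA synthase, was at 111, 113 and 118 CPM in the shNC libraries and 30.0, 29.1 and 28.4 CPM in the Dsh libraries. For HMGCS1 the log2 fold change was -1.97 ± 0.0542 SE (adjusted p = 6.24e-16). CYP51A1, the lanosterol demethylase, was at 23.8, 23.1 and 24.7 CPM in the shNC libraries and 7.91, 9.28 and 5.82 CPM in the Dsh libraries. CYP51A1 had a log2 fold change of -1.66 ± 0.125 SE (adjusted p = 1.29e-09). The sterol isomerase gene EBP was at 50.5, 47.4 and 46.2 CPM in the shNC libraries and 18.3, 14.6 and 15.5 CPM in the Dsh libraries. For EBP the log2 fold change was -1.57 ± 0.0818 SE (adjusted p = 6.41e-12). Each had all Dsh libraries below all shNC libraries, which their choice required. The farnesyl diphosphate synthase gene FDPS changed by -1.33, the lanosterol synthase gene LSS by -1.27 and INSIG1, which retains SREBP in the endoplasmic reticulum, by -1.25. The factor itself, SREBF2, was the member that did not pass the test, with 268 ± 4.32 CPM in shNC and 274 ± 14.4 CPM in Dsh (SD, n = 3; log2 fold change 0.03, adjusted p = 0.647). The medians of the list were -0.20 in shKDM5C and -0.28 in shYY1. In direct comparisons 19 genes were lower in Dsh than in shKDM5C and 1 higher, and 18 were lower than in shYY1 and 2 higher. The promoters were also searched on both strands for an SREBP motif, the letters TCAC, any base, then CCAC. It was in 1 of 18 matched promoters of the cholesterol list, that of SREBF2, and in 0 of 10 of the fatty acid synthesis list. Of the promoters of genes tested, 1.11% held it. Sites that differ from these letters or lie outside the promoters searched would be missed, so these counts do not show that SREBP sites are absent.

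Fatty acid synthesis genes fell with them, 10 of 11, with a median of -1.05. SCD, the stearoyl-CoA desaturase on chromosome 10, 100347124 to 100364834, was at 1493, 1482 and 1534 CPM in the shNC libraries and 232, 246 and 237 CPM in the Dsh libraries. SCD had a log2 fold change of -2.66 ± 0.0434 SE (adjusted p = 7.95e-19). SCD had means of 969 CPM in shKDM5C and 737 CPM in shYY1. ACSS2, which makes acetyl-CoA from acetate, was at 56.4, 58.2 and 55.7 CPM in the shNC libraries and 14.1, 15.8 and 16.6 CPM in the Dsh libraries. ACSS2 had a log2 fold change of -1.87 ± 0.0731 SE (adjusted p = 1.07e-13). The desaturase gene FADS2 was at 71.5, 70.2 and 75.0 CPM in the shNC libraries and 25.5, 19.3 and 22.6 CPM in the Dsh libraries. FADS2 had a log2 fold change of -1.68 ± 0.0771 SE (adjusted p = 1.07e-12). ACACA, the acetyl-CoA carboxylase, fell by 1.08 on the log2 scale. ACLY did not pass the test, with 555 ± 3.81 CPM in shNC and 566 ± 18.0 CPM in Dsh (SD, n = 3; log2 fold change 0.03, adjusted p = 0.601). Genes of fatty acid oxidation were split, with 5 lower and 6 higher of 17. The lower genes of that list numbered 8 with the replicate block or without Dsh replicate 1 or 3. Among them CPT1A, the carnitine transferase that admits fatty acids to mitochondria, rose from 25.3, 24.8 and 24.2 CPM to 64.1, 64.3 and 68.5 CPM. For CPT1A the log2 fold change was 1.41 ± 0.0619 SE (adjusted p = 6.26e-13). PPARGC1A, a coactivator of oxidative genes, had a log2 fold change of 1.51, adjusted p = 5.60e-06. The lipid carrier gene FABP3 fell from 103, 99.2 and 104 CPM to 13.5, 13.5 and 13.2 CPM. FABP3 had a log2 fold change of -2.93 ± 0.0609 SE (adjusted p = 1.24e-17). FABP3 had a mean of 11.2 CPM in shYY1 alone.

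Other metabolic lists were lower in larger shares than all genes. Of 20 glycolysis genes 15 were lower and 1 higher, none by a large change. The glucose transporter gene SLC2A1 was at 416, 389.6 and 400.2 CPM in the shNC libraries and 199, 206 and 213 CPM in the Dsh libraries. SLC2A1 had a log2 fold change of -0.97 ± 0.0453 SE (adjusted p = 1.43e-12). LDHA, the lactate dehydrogenase, was at 1133, 1117 and 1192 CPM in the shNC libraries and 729, 668 and 652 CPM in the Dsh libraries. For LDHA the log2 fold change was -0.75 ± 0.0462 SE (adjusted p = 7.30e-11). The lactate exporter gene SLC16A3 rose (1.23, adjusted p = 5.88e-07). Folate carries the carbon units used for nucleotide synthesis, and 9 of 14 tested folate genes fell and 3 rose, the falls including SHMT1 (-1.10). Of the NRF2 and glutathione list, which defends cells against oxidants, 11 were lower and 6 higher of 21. The sulfiredoxin gene SRXN1 had a log2 fold change of -2.29, adjusted p = 1.50e-09. ATF4 drives amino acid uptake and synthesis genes under stress, and its list had 12 falls and 5 rises among 21. SLC7A5, the large neutral amino acid transporter, was at 1922, 1859 and 1933 CPM in the shNC libraries and 526, 534 and 558 CPM in the Dsh libraries. For SLC7A5 the log2 fold change was -1.82 ± 0.0411 SE (adjusted p = 4.09e-17). In contrast, shYY1 cells had a mean of 3166 CPM. In the same list SESN2, a sestrin that restrains mTORC1, rose from 38.0, 42.1 and 35.6 CPM to 152, 139 and 153 CPM. For SESN2 the log2 fold change was 1.94 ± 0.0613 SE (adjusted p = 5.15e-15). Hypoxia response genes were mixed, with 7 lower and 10 higher of 18, NDRG1 at -2.26 and SLC2A3 at 2.16 on the log2 scale. Metallothioneins bind zinc and copper, and 3 of the 5 that passed the filter fell, MT1F from 10.6 to 1.61 CPM (log2 fold change -2.72 ± 0.171 SE, adjusted p = 9.80e-11). MT2A had 638 ± 47.2 CPM in shNC and 601 ± 177 CPM in Dsh (SD, n = 3; log2 fold change -0.09, adjusted p = 0.528). These short genes are close copies of each other, so reads may be shared among them.

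Epithelial and kidney genes were among the larger falls. CDH1, or E-cadherin, the adhesion molecule of epithelia, was at 48.9, 48.1 and 44.6 CPM in the shNC libraries and 6.28, 3.88 and 5.53 CPM in the Dsh libraries. CDH1 had a log2 fold change of -3.16 ± 0.111 SE (adjusted p = 2.32e-14). It was at 4.65, 5.09 and 6.87 CPM in shKDM5C and 40.6, 44 and 40.3 CPM in shYY1. The Dsh libraries overlapped those of shKDM5C, with a log2 difference of -0.07 ± 0.191 SE that did not pass the test (adjusted p = 0.771), and were below all shYY1 libraries. The kidney cadherin gene CDH16 (-1.70), the epithelial adhesion gene EPCAM (-1.38) and SNAI2, which represses E-cadherin (-1.74), fell too. In the cadherin and epithelial-mesenchymal list 9 were lower and 4 higher of 14. Of 21 tight junction genes 11 were lower and 6 higher, with large changes in both directions. CGN, the scaffold cingulin, fell from 14.3, 16.8 and 15.8 CPM to 2.30, 2.02 and 1.78 CPM. CGN had a log2 fold change of -2.95 ± 0.142 SE (adjusted p = 2.01e-12). CLDN1 rose from 155, 165 and 153 CPM to 718, 729 and 689 CPM. CLDN1 had a log2 fold change of 2.17 ± 0.0467 SE (adjusted p = 2.12e-17). CLDN2, a claudin that forms cation pores in the proximal tubule, rose from 0.412, 0.903 and 0.532 CPM to 9.04, 8.57 and 10.3 CPM. For CLDN2 the log2 fold change was 3.91 ± 0.222 SE (adjusted p = 2.35e-11). Keratin 8, KRT8, was at 1410.5, 1373 and 1386 CPM in the shNC libraries and 715, 643 and 723 CPM in the Dsh libraries. For KRT8 the log2 fold change was -1.0 ± 0.0455 SE (adjusted p = 9.08e-13). EZR, which links microvilli to actin, fell from 1662, 1612 and 1701 CPM to 487, 468 and 469 CPM. For EZR the log2 fold change was -1.81 ± 0.0410 SE (adjusted p = 4.34e-17). ACTB, the cytoplasmic beta-actin, had the largest loss in CPM among the protein-coding genes without overlap, from 6792, 6647 and 6639.8 CPM to 4281, 4002 and 4257 CPM. ACTB had a log2 fold change of -0.68 ± 0.0359 SE (adjusted p = 7.63e-12). CD24, a surface glycoprotein, was at 2146, 2203 and 2176 CPM in the shNC libraries and 479, 513 and 466 CPM in the Dsh libraries. For CD24 the log2 fold change was -2.17 ± 0.0443 SE (adjusted p = 1.11e-17).

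Transcription factors of kidney development were divided, 6 lower and 6 higher of 14, and the 4 large changes among them were all falls. LHX1 was at 24.4, 21.8 and 22.5 CPM in the shNC libraries and 3.83, 4.75 and 4.08 CPM in the Dsh libraries. For LHX1 the log2 fold change was -2.45 ± 0.113 SE (adjusted p = 1.14e-12). PAX2 was at 26.7, 27.7 and 28.5 CPM in the shNC libraries and 6.53, 4.64 and 4.64 CPM in the Dsh libraries. For PAX2 the log2 fold change was -2.40 ± 0.116 SE (adjusted p = 2.20e-12). PAX2 had means of 8.88 CPM in shKDM5C and 82.2 CPM in shYY1. PAX8 rose instead (0.40, adjusted p = 1.56e-07). Of 32 proximal tubule genes only 16 passed the filter, of which 7 were lower and 2 higher, the surface peptidase gene DPP4 with a log2 fold change of -1.75, adjusted p = 1.79e-14. Without Dsh replicate 1 the count of higher genes in that list was 4. Its median was -0.19 in Dsh, -0.61 in shKDM5C and -0.57 in shYY1. Of 15 genes compared directly, 3 were lower and 5 higher in Dsh than in shKDM5C, and 3 were lower and 6 higher than in shYY1. Of the markers of tubule injury, 6 of 7 rose and none fell. Besides VCAM1 these were led by SOX9, at 0.824, 1.22 and 1.70 CPM in the shNC libraries and 5.05, 4.48 and 5.98 CPM in the Dsh libraries. For SOX9 the log2 fold change was 2.05 ± 0.236 SE (adjusted p = 4.08e-07). CD44, the hyaluronan receptor, was at 251, 251 and 262 CPM in the shNC libraries and 693, 667 and 645 CPM in the Dsh libraries. For CD44 the log2 fold change was 1.39 ± 0.0440 SE (adjusted p = 5.34e-15).

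Secreted regulators of insulin-like growth factors changed by large amounts in both directions. The IGF binding proteins sequester the growth factors outside the cell. IGFBP3 was at 723, 666 and 717 CPM in the shNC libraries and 88.2, 78.4 and 86.2 CPM in the Dsh libraries. For IGFBP3 the log2 fold change was -3.06 ± 0.0534 SE (adjusted p = 1.62e-18). IGFBP3 had means of 193 CPM in shKDM5C and 1152 CPM in shYY1. IGFBP7 was at 58.5, 59.6 and 65.3 CPM in the shNC libraries and 591, 530.3 and 545 CPM in the Dsh libraries. For IGFBP7 the log2 fold change was 3.18 ± 0.0562 SE (adjusted p = 1.67e-18). IGFBP5 fell from 5.97, 6.85 and 4.58 CPM to 0, 0.0546 and 0.202 CPM. For IGFBP5 the log2 fold change was -5.84 ± 0.407 SE (adjusted p = 4.36e-10). IGFBP6 had a log2 fold change of -1.87, adjusted p = 3.40e-14. AGRN, or agrin, a heparan sulfate proteoglycan of basement membranes, rose from 1136, 1108 and 1082 CPM to 2133, 2171 and 2349.7 CPM. AGRN had a log2 fold change of 1.0 ± 0.0429 SE (adjusted p = 4.36e-13). DCBLD2, a neuropilin-like receptor, rose from 434, 437 and 459.8 CPM to 1492, 1614 and 1518 CPM. For DCBLD2 the log2 fold change was 1.79 ± 0.0446 SE (adjusted p = 1.87e-16). In the IGF list, 8 were lower and 5 higher of 14, and 5 falls and 2 rises were large. Among WNT genes 13 were lower and 11 higher of 30, and all 7 large changes were falls, with the secreted inhibitor SFRP1 (-2.60), the factor TCF7 (-2.41) and the ligand WNT2B (-2.01) among them. Of 8 ephrin ligands 5 fell and 2 rose, led by EFNB2 (-1.78) and EFNA1 (1.04). Of 9 ephrin receptors 4 fell and 5 rose, and the difference between these sublists was not tested.

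Genes for ribosomes and the respiratory chain were lower in larger shares than all genes, and transcript length moved with these values. Of 77 cytosolic ribosomal protein genes 45 were lower and 16 higher, with 11 large falls and a median of -0.27. RPS23 was at 285, 282 and 287 CPM in the shNC libraries and 14.1, 12.3 and 12.8 CPM in the Dsh libraries. RPS23 had a log2 fold change of -4.45 ± 0.0578 SE (adjusted p = 3.19e-20). RPL30 was at 232, 228 and 227 CPM in the shNC libraries and 15.9, 13.8 and 11.9 CPM in the Dsh libraries. For RPL30 the log2 fold change was -4.06 ± 0.0718 SE (adjusted p = 1.67e-18). RPL23A was at 460.2, 463 and 453 CPM in the shNC libraries and 47.6, 42.4 and 36.8 CPM in the Dsh libraries. RPL23A had a log2 fold change of -3.45 ± 0.0680 SE (adjusted p = 7.17e-18). These genes have many processed pseudogenes with which reads can be shared, so their counts are uncertain. Of 49 nuclear genes of respiratory complexes I to III 27 were lower and 8 higher, with NDUFA1 at 31.9, 28.9 and 28.0 CPM in the shNC libraries and 11.2, 5.79 and 5.53 CPM in the Dsh libraries. For NDUFA1 the log2 fold change was -2.0 ± 0.167 SE (adjusted p = 5.56e-09). In the mitochondrial genome 7 of 13 protein genes fell and 3 rose. MT-ND4L was at 2145, 2250.3 and 2211 CPM in the shNC libraries and 681, 341 and 332 CPM in the Dsh libraries. MT-ND4L had a log2 fold change of -2.29 ± 0.174 SE (adjusted p = 1.52e-09). MT-ATP8 was at 361, 345 and 377 CPM in the shNC libraries and 10.0, 7.54 and 8.24 CPM in the Dsh libraries. For MT-ATP8 the log2 fold change was -5.40 ± 0.0736 SE (adjusted p = 5.14e-20). MT-ATP8 had a mean of 26.9 CPM in shKDM5C. MT-CO1, in contrast, had a small rise (0.14, adjusted p = 8.72e-04). MT-ATP8 and MT-ND4L each overlap a neighbouring gene, which limits the reads that can be assigned to them.

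Over protein-coding genes grouped by the length of their canonical transcript, the 17 genes of up to 400 nt had a median log2 fold change of -1.56 and the 5310 genes above 4000 nt a median of 0.07. In the shortest group 13 genes were lower and none was higher. The corresponding medians of the shortest group were -0.14 in shKDM5C, 0.01 in shYY1 and -0.25 in HK2 Dsh cells. The 3 Dsh libraries differed in it, with a median log2 ratio to shNC of -0.95 in Dsh replicate 1, -1.72 in replicate 2 and -1.63 in replicate 3. The Dsh libraries also differed more among themselves than the shNC libraries: the chi-square of the counts per degree of freedom, which is near 1 under counting error alone, was 5.62 to 6.97 between Dsh libraries and 1.94 to 2.23 between shNC libraries. With the trend of each library with transcript length and GC content taken out, an alternative chosen after seeing the data, the median was -0.10 for the ribosomal list, -0.06 for complexes I to III and 0.03 for the mitochondrial genome, where the sign turned. Under it 28 cytosolic ribosomal protein genes were higher, in place of 16. The median was 1.64 for the p53 list, 0.97 for the NF-kB list and -0.76 for the cholesterol list, and 0.06 over all genes. For the metallothionein list, whose tested genes have a median canonical length of 404 nt, it went from -0.92 to -0.72. The part of transcript length in the falls of short genes was not tested further.

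**Figure D4:**
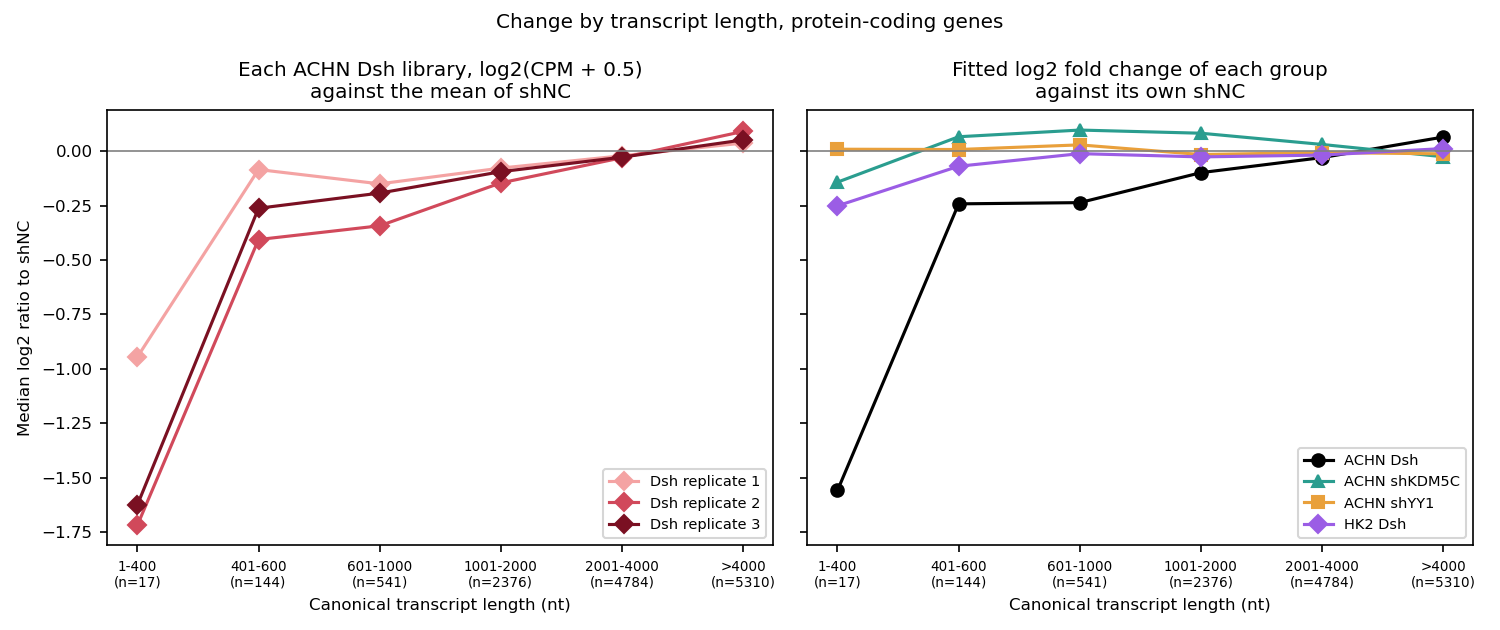
Median log2 ratio to shNC (vertical) of protein-coding genes grouped by canonical transcript length in nt (horizontal, with the number of genes). Left, each ACHN Dsh library, as log2(CPM + 0.5) against the mean of the shNC libraries; right, the fitted log2 fold change of ACHN Dsh, shKDM5C and shYY1 and of HK2 Dsh against their own shNC. The ACHN Dsh line falls to -1.56 in the shortest group, with replicate 1 above replicates 2 and 3, and the other groups stay between -0.25 and 0.10.

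Genes of the respiratory chain and the mitochondrial ribosome are known to carry YY1 binding letters near their starts. On both strands, GCCATNTT was present in 16 of 41 matched promoters of the complex I to III list and in 25 of 69 of the mitochondrial ribosome list, against 9.70% of the promoters of genes tested and 6.82% of all promoters. Among genes with a large fall it was in 33 of 543 promoters and among those with a large rise in 5 of 247. Of the mitochondrial ribosome genes 35 were lower and 23 higher of 78. The windows show these letters in capitals, with 10 bases on each side, upstream of the start of genes that fell, rose and did not pass the test: NDUFA1 at chrX:119871599-119871626 on the plus strand (-2.0), MRPL52 at chr14:22829779-22829806 on the plus strand (-1.12, the farther from the start of a pair of matches), MRPL36 at chr5:1799855-1799882 on the minus strand (-0.75), NDUFS8 at chr11:68030491-68030518 on the plus strand (0.48) and MRPL47 at chr3:179604713-179604740 on the minus strand (-0.05, adjusted p = 0.665), with the log2 fold change of each in brackets.
NDUFA1: aagctgctctGCCATTTTagagtcctga
MRPL52: acgatgacccAAGATGGCggagccgtga
MRPL36: cccccccgccGCCATCTTccttcctggc
NDUFS8: tccccaaaccAACATGGCggccccctac
MRPL47: gcaggatgtgGCCATCTTaagtgagggc

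Lists around the targets changed in both directions. Of 17 genes that set or remove methyl groups on lysine 4 of histone H3, 6 were lower and 8 higher, none by a large change. The paralog KDM5B was at 92.2, 94.1 and 91.0 CPM in the shNC libraries and 153, 173 and 164 CPM in the Dsh libraries. For KDM5B the log2 fold change was 0.82 ± 0.0509 SE (adjusted p = 8.45e-11). The demethylase gene KDM1B was at 37.4, 42.4 and 38.2 CPM in the shNC libraries and 16.7, 16.8 and 20.1 CPM in the Dsh libraries. For KDM1B the log2 fold change was -1.13 ± 0.0847 SE (adjusted p = 1.16e-09). Of 15 genes of YY1 and its INO80 partners 7 were lower and 4 higher, and of 26 Polycomb genes 9 were lower and 8 higher, with EZH2 at -0.87 and PHC2 at 1.22 on the log2 scale. HOX genes (13 lower and 14 higher of 37) and zinc finger genes (99 and 96 of 391) were near balance, and germline genes, of which KDM5C is a known repressor in other cells, mostly failed the filter, with 5 of 56 tested. Of the 53 clustered protocadherin genes 12 were tested, and 1 was lower and 2 were higher. The count of lower protocadherins rested on single libraries: it was 0 without shNC replicate 2 or 3, 2 without Dsh replicate 2 or 3, 3 without shNC replicate 1 or Dsh replicate 1, and 4 with the replicate block. Of the imprinted genes 5 were lower and 3 higher of 12.

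The HK2 line, in which 24.3% of genes were lower and 25.5% higher in Dsh than in shNC cells, shared only some of these patterns. Of 236 named genes, 43 were called in opposite directions in the 2 lines and also differed by a test, 26 of them with a large change in ACHN. Apart from KDM5C and YY1 the named genes were chosen by the size of their change in ACHN, which favours differences between the lines. The share of all genes called in opposite directions was not counted, so the 43 cannot be called more or fewer than over all genes. The difference between the double-knockdown effects was tested as an interaction, which placed 22.7% of genes lower and 23.3% higher in ACHN than in HK2. For the cholesterol list the HK2 median was 0.07, with 6 lower and 7 higher, and the effect was lower in ACHN for 21 of 24 genes. For the p53 list the HK2 median was 0.42, with 5 lower and 11 higher, and the effect was higher in ACHN for 16 of 18 and lower for 1. CDKN1A rose in HK2 by 1.56 and GDF15 by 2.23 on the log2 scale, while FDXR fell by 0.48. The NF-kB, lysosome and tubule injury lists had HK2 medians of 0.54, 0.68 and 1.01, beside 0.86, 0.59 and 0.96 in ACHN. Single genes differed all the same. The effect was lower in ACHN for 4 and higher for 8 of 16 NF-kB genes, and lower for 14 and higher for 9 of 26 lysosome genes. The tubule injury genes also went partly apart, with 3 lower and 4 higher in HK2, against none lower and 6 higher in ACHN. Of these 7 genes, 2 had a lower and 4 a higher effect in ACHN. C3 rose in both lines, with a log2 fold change of 2.80 in HK2, and so did ANGPTL4 with 3.69 and PDCD1LG2 with 3.62. The ATF4 list went apart, with a median of 0.90 in HK2 and -0.28 in ACHN, and the effect was lower in ACHN for 16 of 21 genes.

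**Figure D5:**
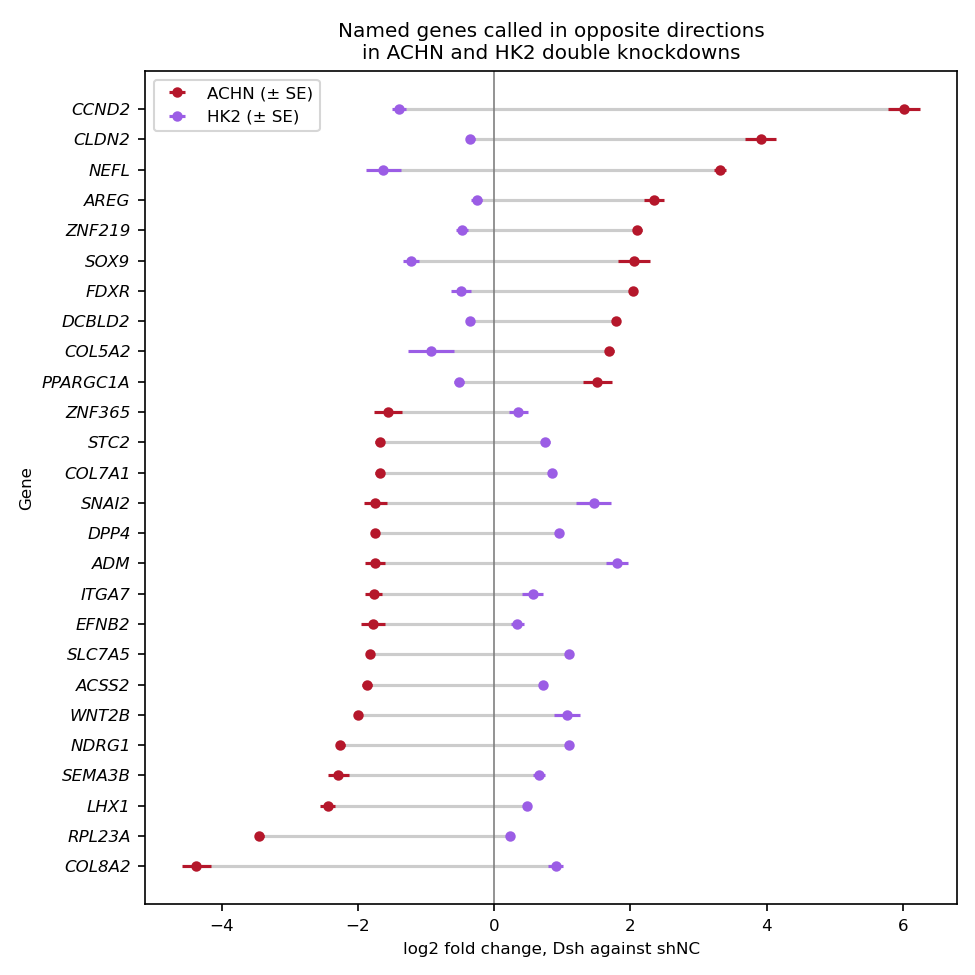
Log2 fold change between Dsh and shNC (horizontal, bars are SE) in ACHN and in HK2 for 26 named genes (rows) with a large change in ACHN that were called in opposite directions in the 2 cell lines and differed between them by the interaction test. CCND2 and CLDN2 lie far to the right in ACHN and below 0 in HK2, and COL8A2 and LHX1 lie far to the left in ACHN and above 0 in HK2.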

How the data were processed

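RNA was sequenced from 12 ACHN and 12 HK2 libraries. Per the labels and the study's methods, the authors made 150 bp paired-end libraries, aligned the reads to hg38 (HISAT2 2.0.5) and counted them on genes by read pair (featureCounts, 1.5.0-p3 in the notes, 2.0.1 in the file headers, Ensembl release 84, no strand option), so a gene and an antisense partner cannot be told apart. The deposited values are raw counts per gene, 60675 genes a library. They were not normalized before deposit. Here they were tested in edgeR 4.0.16 (R 4.3.3) after its low-count filter, with TMM scaling, the quasi-likelihood test and Benjamini-Hochberg adjustment over all genes tested. Each comparison was fitted on its own groups, and the difference between cell lines as an interaction over 12 libraries. The scripts were tested on simulated data.

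The labels gave the groups. Members and gene lists were chosen with earlier results of these data known. Named genes were KDM5C, YY1, the 15 largest folds in each direction (mean of at least 10 CPM), the 8 largest CPM differences in each direction and up to 4 members of each list (at least 5 CPM), all without overlap between groups; other list members named were chosen after their values were seen. Some of the selected genes and list members are not reported here. Alternatives tried were DESeq2 1.42.0, other scalings and filters, a fit over all groups of the cell lines compared, a replicate block, a length trend and leaving out each library. A canonical transcript length (GENCODE release 44) and GC trend was added after seeing the data. Shared replicate numbers did not pair the libraries, with correlations of 0.0482, 0.00657 and -0.0484. Promoters came from RefSeq, and 11497 of 16443 tested symbols matched one.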

Additional observations from a re-analysis of the deposited data

Results flagged for a closer look

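The double-knockdown effect differed between ACHN and HK2 by edgeR's interaction test for 4101 genes that were lower and 4220 that were higher in ACHN. Among the 236 named genes, 26 had a large change in ACHN and were also called in opposite directions in the 2 lines. Nearly all named genes were chosen by their change in ACHN, which favours such differences. Without a count of opposite calls over all genes, the 26 cannot be called more or fewer than elsewhere. Each log2 difference below is the ACHN effect minus the HK2 effect with an adjusted p under 0.05. Nothing here tests why the lines differ, and the HK2 cells had the deeper fall of both targeted transcripts.

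Genes that rose in ACHN and fell in HK2 included the cell cycle gene CCND2 (7.44), the neurofilament gene NEFL (4.96), the pore-forming claudin gene CLDN2 (4.29) and the transcription factor gene SOX9 (3.30). COL5A2 (2.64), the EGF receptor ligand gene AREG (2.62), ZNF219 (2.59), the p53 target FDXR (2.54), DCBLD2 (2.17) and the coactivator gene PPARGC1A (2.04) did so by less. CCND2 rose by 6.02 in ACHN and changed by -1.40 in HK2 on the log2 scale.

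Genes that fell in ACHN and rose in HK2 included the collagen genes COL8A2 (-5.26) and COL7A1 (-2.51), the ribosomal protein gene RPL23A (-3.66, with counts uncertain through pseudogenes), and ADM (-3.54) and NDRG1 (-3.35), both of the hypoxia list. The transcription factor genes SNAI2 (-3.19) and LHX1 (-2.92), the ligand gene WNT2B (-3.06), the semaphorin gene SEMA3B (-2.93), the amino acid transporter gene SLC7A5 (-2.91) and the peptidase gene DPP4 (-2.68) followed. Other differences in this direction were of ACSS2 (-2.56), STC2 (-2.42), ITGA7 (-2.31), EFNB2 (-2.10) and ZNF365 (-1.89). ADM, which encodes adrenomedullin, changed by -1.75 in ACHN and by 1.80 in HK2 on the log2 scale.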

How the results depend on the processing

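At an adjusted p under 0.05, 5264 genes were lower and 5044 higher in ACHN Dsh than in shNC cells with edgeR, and 4890 and 4794 with DESeq2. Without a filter on low counts the numbers of large falls and rises went from 923 and 462 to 1717 and 1186, with 33223 genes tested in place of 16454. In a fit over all HK2 groups the HK2 counts were 1922 lower and 1992 higher. In a separate fit over all 8 groups of both lines, 2681 genes had a higher effect in ACHN than in HK2. Both fits include an HK2 shKDM5C library that stands apart from its replicates, and the cause was not tested. With a replicate block 5227 genes were lower and 5000 higher in ACHN, and 935 and 465 by a large change. Leaving out each library in turn gave 4872 to 5288 lower and 4633 to 5161 higher genes, 965 to 1079 large falls and 506 to 574 large rises. With the canonical length and GC trend taken out 45.0% of calls were lower, against 51.1%. Of 3540 values of named genes under alternatives 3536 kept their direction and their side of the threshold. The others were of HILPDA, whose log2 fold change was no longer called with either length trend taken out or without shNC replicate 2 or Dsh replicate 2. Of 2340 list counts and medians 112 moved. They included fatty acid oxidation, where 8 genes were lower with the replicate block or without Dsh replicate 1 or 3, in place of 5, and YY1 and INO80, where 3 were lower with the canonical trend taken out, in place of 7. The second infection of Dsh cells, with no statement of how shNC cells were treated at that step, and the spread among Dsh libraries limit these values, and the depth limits genes under the filter.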

Other observations

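Several developmental and signalling lists held both lower and higher genes, beside 32.0% lower and 30.7% higher over all genes tested. Of the TGF-beta and BMP list 7 were lower and 11 higher of 25, of the YAP and TEAD list 7 were lower and 10 higher of 20, of the semaphorin and plexin list 11 were lower and 10 higher of 25 and of the MYC network 4 were lower and 5 higher of 11. Among Notch genes 2 were lower and 5 higher of 10, and among REST and neuronal genes 5 were lower and 4 higher of 12. In ribosome biogenesis 7 were lower and 8 higher of 22, while in HK2 16 were lower and none was higher. Without shNC replicate 3 the lower genes in ACHN numbered 4 in ribosome biogenesis and 3 among REST and neuronal genes. For genes of the unfolded protein response 7 were lower and 8 higher of 18 in ACHN, while 15 rose and 1 fell in HK2. In the proteasome list 15 were lower and 10 higher of 31, in keratins 5 were lower and 2 higher of 8 and in the lipid droplet list 6 were lower and 1 higher of 10, where none was higher without shNC replicate 3.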
